A study of Mus musculus with 6 samples.

Results

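The insulin genes and the genes that mark a mature beta cell were followed as a set of 10, chosen by name: Ins1, Ins2, Iapp, Mafa, G6pc2, Slc2a2, Slc30a8, Ucn3, Pdx1 and Nkx6-1. They were read out of 35527 genes with a quantified transcript, and all 10 had enough reads to be among the 15805 genes tested. The tissue was whole pancreas of C57BL/6 mice at postnatal day 1. The KO group held 3 mice carrying miR216a-/-, and the WT group held 3 wild-type mice. Each library came from its own donor animal, and nothing in the sources used here says how the deletion was made or gives sex or litter.

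Beta cells are the islet cells that release insulin when blood glucose is high. Mice carry a pair of insulin genes, and the prohormone made from them is cut and packed with zinc into granules together with islet amyloid polypeptide, the Iapp product. Newborn beta cells already make insulin but respond poorly to glucose, and they acquire a mature response over the weeks after birth, when Mafa and Ucn3 rise and several widely used housekeeping genes are shut off. Whole pancreas is mostly acinar tissue, so islet genes are a small part of its RNA.

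Depth ranged from 20565387 to 23028718 estimated reads per library. Levels are given in CPM, reads scaled to a common total after TMM normalization. As a check of the tissue, 13 acinar genes summed to 239500 to 297700 CPM in KO, with 192500 to 276600 CPM in WT. Several libraries stood apart. The 12 listed liver genes summed to 577 CPM in WT 1, against 18.0 to 46.1 CPM in KO and 17.7 and 20.5 CPM in WT 2 and WT 3. The 4 Y-linked genes measured summed to 3.82 CPM in KO 1 and to between 147 and 194 CPM in the other 5 libraries. Erythroid genes were highest in WT 1 at 5940 CPM and in KO 2 at 4787 CPM, with 1705 to 2836 CPM elsewhere. All 10 listed cell cycle genes had every KO library below every WT library, where 10.3% of all tested genes did. Their sum was 246 to 651 CPM in KO against 858 to 1078 CPM in WT. What part any of these differences has in the values of the beta cell genes was not tested.

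miR-216a is a microRNA abundant in pancreas. The quantified transcript set held 0 transcripts of its gene, so the genotypes rest on the labels. The mature sequences (RefSeq, GRCm38.p6, plus strand, chr11:28757018-28757039 for the 5p arm and chr11:28757058-28757079 for the 3p arm) are shown because the KO mice are labelled as lacking them. Capitals mark the seed, bases 2 to 8, which pairs with target RNAs.
mmu-miR-216a-5p: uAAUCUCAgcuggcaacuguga
mmu-miR-216a-3p: cACAGUGGucucugggauuaug
The longest annotated 3' UTR of each gene was searched for a match to bases 2 to 8, or to bases 2 to 7 followed by A. For miR-216a-5p, 0 of the 10 genes held a match, where 16.2% of 21110 coding genes did. For miR-216a-3p a single match was found, in Mafa, where 23.9% of coding genes held one. It lies at chr15:75746120-75746143 on the minus strand (GRCm38) and is printed with the matching bases in capitals.
Mafa 3' UTR: tgttggtcCCACTGTcctgctata
A match of letters is a description and does not show that the microRNA binds there.

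Of the 10 genes, 4 had every KO library below every WT library: Ins1, Ins2, Mafa and G6pc2. Across all tested genes 10.3% did so, and 9.07% had every KO library above every WT library, which none of the 10 genes did. A lower mean in KO was found for 7 of the 10, where 48.8% of all genes had one, with a median log2 fold change of -0.22 over the set, beside a median of 0.0069 over all tested genes. With edgeR's quasi-likelihood test 0 of the 10 passed an adjusted p of 0.05, where 0% of all genes passed. Without adjustment 4 of them had a p under 0.05, all lower, where 7% of all genes were lower and 5.62% higher at that level. DESeq2 called the same 4 genes lower, with adjusted p-values of 0.0436 for Ins1, 0.00207 for Ins2, 0.00737 for Mafa and 0.00362 for G6pc2, where it called 2.18% of genes lower and 0.947% higher. Without WT 2, or without WT 3, DESeq2 called 1 of the 10, Ins2, where it called 0.385% of genes lower without WT 2 and 0.22% without WT 3. Limma-voom called 0 of the 10, where 0.0127% of all genes passed. In whole pancreas, fewer beta cells and less RNA per beta cell cannot be told apart.

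**Figure D1:**
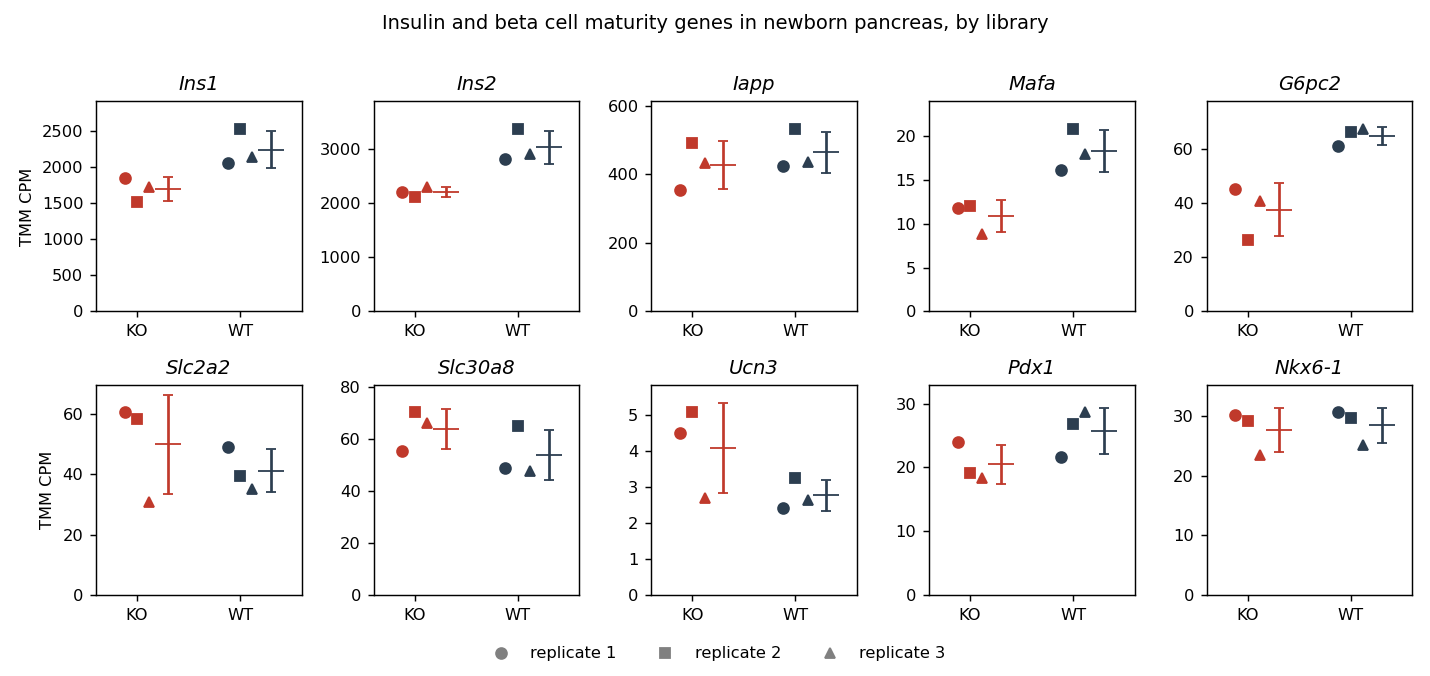
Level of each gene in TMM-scaled CPM on a linear axis from 0, with 1 symbol per library and the mean and SD of 3 libraries beside each group. For Ins1, Ins2, Mafa and G6pc2 the KO libraries lie below all WT libraries, while for the other 6 genes the groups overlap.

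Per length of transcript the genes spanned a wide range. In TPM, a unit that also divides by transcript length, Ins2 averaged 9469 ± 1190 in KO and 12500 ± 2105 in WT (SD, n = 3 each) and ranked 9 among all genes by its mean over the 6 libraries. Ins1 followed at 2488 ± 432 TPM in KO and 3223 ± 624 TPM in WT, and Iapp at 811, 994 and 1002 TPM in KO and 916, 1216 and 868 TPM in WT. These 3 hormone genes kept that order in all 6 libraries. The gap between Ins2 and Ins1 depends on annotated length, 1062 bases for Ins1 and 455 and 478 for the main Ins2 transcripts. In reads it was smaller, with 1.30 of Ins2 per read of Ins1 in KO and 1.35 in WT. The mean of Iapp was 24.1 times that of the next gene, Slc30a8. Slc30a8 (43.6 ± 3.75 TPM in KO and 36.8 ± 9.93 TPM in WT) and G6pc2 (29.1 ± 9.44 TPM in KO and 49.3 ± 4.42 TPM in WT) did not differ in order beyond their spread, with Slc30a8 above in 3 of 6 libraries. Slc2a2, Nkx6-1 and Pdx1 lay close together, with means over all libraries of 17.0, 14.9 and 14.6 TPM, and Nkx6-1 exceeded Pdx1 in 4 of 6 libraries. Mafa, at 7.34 ± 0.909 TPM in KO and 11.9 ± 3.01 TPM in WT, lay below those 3 genes in every library but above Ucn3, the lowest, at 3.68 ± 0.982 TPM in KO and 2.48 ± 0.603 TPM in WT.

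Both insulin genes averaged lower in KO pancreas, with no overlap between the groups, but neither passed edgeR's adjusted threshold. Ins2, the conserved insulin gene on chromosome 7 (chr7:142678656-142743381, minus strand, GRCm38), had 2211, 2116 and 2291 CPM in KO 1 to 3, against 2810, 3371 and 2901 CPM in WT 1 to 3. WT 2 was the highest library and the 3 KO libraries lay close together. The log2 fold change was -0.46 ± 0.12 (SE), a level 27.1% lower, with an edgeR adjusted p of 0.235. Ins1, the intron-poor copy found in rats and mice (chr19:52264297-52265476, plus strand), had 1852, 1517 and 1731 CPM in KO and 2063, 2534 and 2137 CPM in WT. Here KO 1 came nearest to the WT range. Its log2 fold change was -0.40 ± 0.13 (SE), with an edgeR adjusted p of 0.280.

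The transcripts of Ins1 and Ins2 are alike, and reads they share are divided by the quantifier. Of the 1032 stretches of 31 bases in the Ins1 transcript, 47 (4.55%) also occur in an Ins2 transcript. The share also found in Ins1 was 11.06% and 10.49% for the main Ins2 transcripts, and at most 16.85% for any Ins2 transcript. Most of each message is thus distinct at that length. The sum of both genes does not depend on the division. It was 4063, 3634 and 4022 CPM in KO against 4873, 5905 and 5039 CPM in WT, or 0.363 to 0.406% of scaled counts in KO and 0.487 to 0.591% in WT. The KO range lies wholly below the WT range. The mean log2 difference was -0.43, which is 25.7% lower, with an exact permutation p of 0.1, two-sided, the smallest that 3 against 3 libraries allow. The balance between the genes was 1.30 ± 0.102 reads of Ins2 per read of Ins1 in KO and 1.35 ± 0.0171 in WT (SD, n = 3 each, exact permutation p = 0.6, two-sided).

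Iapp, whose peptide is packed with insulin, overlapped between the groups. It had 353, 493 and 433 CPM in KO 1 to 3 and 423, 533 and 436 CPM in WT 1 to 3. KO 1 was the lowest of the 6 libraries, while KO 2 exceeded all WT libraries but WT 2. The log2 fold change was -0.12 ± 0.15 (SE), with an edgeR adjusted p of 0.778. It was -0.0042 without KO 1, -0.01 without WT 2 and -0.24 without KO 2. Iapp (chr6:142298423-142303961, plus strand) overlaps the gene Slco1a5 on the opposite strand, which held only 2 to 7 reads per library.

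The upstream 250 bases of Ins1, Iapp and G6pc2 are shown because all 3 genes are used by beta cells but had fold change estimates of different size. They come from RefSeq (GRCm38.p6), at chr19:52264047-52264296, chr6:142298175-142298424 and chr2:69219699-69219948, all on the plus strand, and the G6pc2 window is the one before its coding transcripts. Capitals mark TAAT, the core of the A boxes that PDX1 and other homeodomain proteins bind, and CATCTG, the E box of insulin promoters that NEUROD1 binds, each on either strand.
Ins1: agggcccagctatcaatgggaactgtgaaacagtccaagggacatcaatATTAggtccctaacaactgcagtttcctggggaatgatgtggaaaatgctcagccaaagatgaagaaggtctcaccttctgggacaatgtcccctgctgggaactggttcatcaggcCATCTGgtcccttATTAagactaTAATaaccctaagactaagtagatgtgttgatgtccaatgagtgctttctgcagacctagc
Iapp: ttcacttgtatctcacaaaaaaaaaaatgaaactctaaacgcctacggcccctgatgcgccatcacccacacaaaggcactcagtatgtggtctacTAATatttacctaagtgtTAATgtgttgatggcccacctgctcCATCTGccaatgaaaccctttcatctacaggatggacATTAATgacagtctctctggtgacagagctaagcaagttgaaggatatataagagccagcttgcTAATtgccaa
G6pc2: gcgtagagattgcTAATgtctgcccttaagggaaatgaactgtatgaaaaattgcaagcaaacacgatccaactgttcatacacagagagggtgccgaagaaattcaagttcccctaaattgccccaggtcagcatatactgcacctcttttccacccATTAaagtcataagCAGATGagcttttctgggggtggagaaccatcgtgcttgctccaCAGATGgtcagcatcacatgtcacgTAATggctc
Ins1 holds 3 matches to TAAT and 1 to CATCTG, Iapp 5 and 1, and this G6pc2 window 3 and 2. Ins2, Mafa and Slc30a8 had no window in the set used and were not searched. The windows searched but not printed held fewer matches to TAAT. Ucn3 held 2 and 1, Slc2a2 and the other G6pc2 window 1 and 0 each, and Pdx1 and Nkx6-1 0 of both. Among 32817 promoter windows of 250 bases, 54.9% held TAAT and 14.5% held CATCTG. The letters CTTCAGC, taken as the core of the C1 element bound by MAFA, were in none of the 3 windows and in 5.18% of all windows. Only these exact letters were searched, so their absence does not show that a window lacks a site for MAFA. The windows were placed by annotated transcript starts, and the Ins1 window ends directly before the annotated start of the gene. Bases past the windows were not searched, and where transcription begins in these libraries was not examined. The match counts therefore describe these windows and not the whole promoters.

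Among the transcription factors Mafa showed the largest difference. Mafa (chr15:75745490-75748228, minus strand, a single exon) encodes the activator of insulin transcription that marks mature beta cells. It had 11.8, 12.04 and 8.81 CPM in KO, from 250, 237 and 206 reads, against 16.1, 20.8 and 17.9 CPM in WT, from 339, 519 and 377 reads. KO 3 was the lowest library, and the groups did not overlap. The log2 fold change was -0.75 ± 0.16 (SE), with an edgeR adjusted p of 0.205. Pdx1 (chr5:147269959-147275848, plus strand) is needed to form the pancreas and later sustains beta cell identity. Its levels were 24.02, 19.1 and 18.3 CPM in KO and 21.7, 26.7 and 28.6 CPM in WT, so WT 1 lay within the KO range. Its log2 fold change of -0.33 ± 0.15 (SE) had an edgeR adjusted p of 0.427. Nkx6-1 (chr5:101658139-101664996, minus strand), which keeps beta cells from taking other islet fates, had 30.2, 29.1 and 23.4 CPM in KO and 30.6, 29.7 and 25.1 CPM in WT, nearly the same range in both groups (log2 fold change -0.05 ± 0.13 SE, edgeR adjusted p = 0.925). Plut, an antisense gene that overlaps Pdx1, was not in the quantified set.

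Of the glucose handling genes, G6pc2 averaged lower in KO with no overlap, and Slc2a2 overlapped between the groups. G6pc2 (chr2:69211073-69227841, plus strand) encodes an islet glucose-6-phosphatase that works against glucokinase. It had 45.3, 26.6 and 41.0 CPM in KO and 61.3, 66.3 and 67.7 CPM in WT. KO 2 was below the other KO libraries, and the WT libraries lay close together. The log2 fold change was -0.79 ± 0.18 (SE), the largest of the 10 in size, with an edgeR adjusted p of 0.206. Slc2a2 (chr3:28697903-28731359, plus strand) encodes GLUT2, the glucose transporter of rodent beta cells and of liver. It had 60.4, 58.2 and 30.96 CPM in KO and 48.9, 39.3 and 35.2 CPM in WT. KO 3 was the lowest of the 6 libraries and KO 1 and KO 2 were the highest, so the groups overlapped (log2 fold change 0.28 ± 0.25 SE, edgeR adjusted p = 0.696). WT 1, the library rich in liver genes, had the highest Slc2a2 level of the WT group. The log2 fold change was 0.42 without WT 1 and 0.53 without KO 3, but 0.11 without KO 1 and 0.15 without KO 2. The part of liver RNA in the Slc2a2 level was not tested. The antisense gene 1700112D23Rik overlaps Slc2a2 and was not in the quantified set.

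G6pc2 reads came almost wholly from a pair of coding transcripts that differ by exon 4. The full transcript has 5 exons. The other lacks the 116 bases of exon 4 (chr2:69225812-69225927, GRCm38), and its annotated reading frame ends 22 bases into the last exon, where that of the full transcript runs for 509. The 5-exon transcript had 14.4, 9.01 and 23 TPM in KO and 22.5, 26.5 and 21.5 TPM in WT, so KO 3 lay within the WT range. The 4-exon transcript had 21.9, 9.39 and 8.63 TPM in KO and 23.3, 27.7 and 24.8 TPM in WT, and here all KO values were the lower ones. The 5-exon share of G6pc2 reads was 42.0, 51.4 and 74.2% in KO, against 51.5, 51.2 and 48.5% in WT. These shares spread widely in KO and were nearly even in WT. They were chosen after the values were seen, rest on estimates that divide reads between overlapping transcripts, and were not tested.

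**Figure D2:**
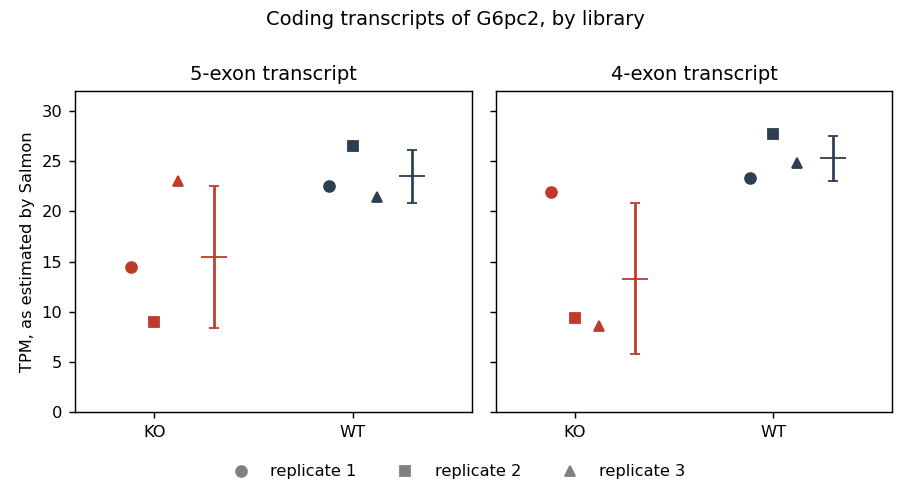
TPM of the 5-exon (left) and 4-exon (right) coding transcripts of G6pc2 on a linear axis from 0, with 1 symbol per library and the mean and SD of 3 libraries beside each group. KO 3 reaches 23 TPM for the 5-exon transcript and 8.63 TPM for the 4-exon one, while the WT libraries stay between 21.5 and 27.7 TPM for both.

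Slc30a8 and Ucn3 had higher means in KO, but the libraries of the groups overlapped. Slc30a8 (chr15:52295553-52335798, plus strand) encodes ZnT8, which carries zinc into insulin granules. It had 55.4, 70.2 and 66.2 CPM in KO and 48.7, 65.1 and 47.7 CPM in WT, where WT 2 lay among the KO libraries (log2 fold change 0.25 ± 0.15 SE, edgeR adjusted p = 0.538). Ucn3 (chr13:3940688-3945349, minus strand) encodes urocortin 3, a peptide that mouse beta cells acquire late in maturation. It was scarce, with 4.52, 5.08 and 2.69 CPM in KO, from 96, 100 and 63 reads, and 2.42, 3.25 and 2.66 CPM in WT, from 51, 81 and 56 reads. KO 1 and KO 2 stood above all WT libraries and KO 3 did not. Its log2 fold change was 0.56 ± 0.28 (SE), with an edgeR adjusted p of 0.470.

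**Figure D3:**
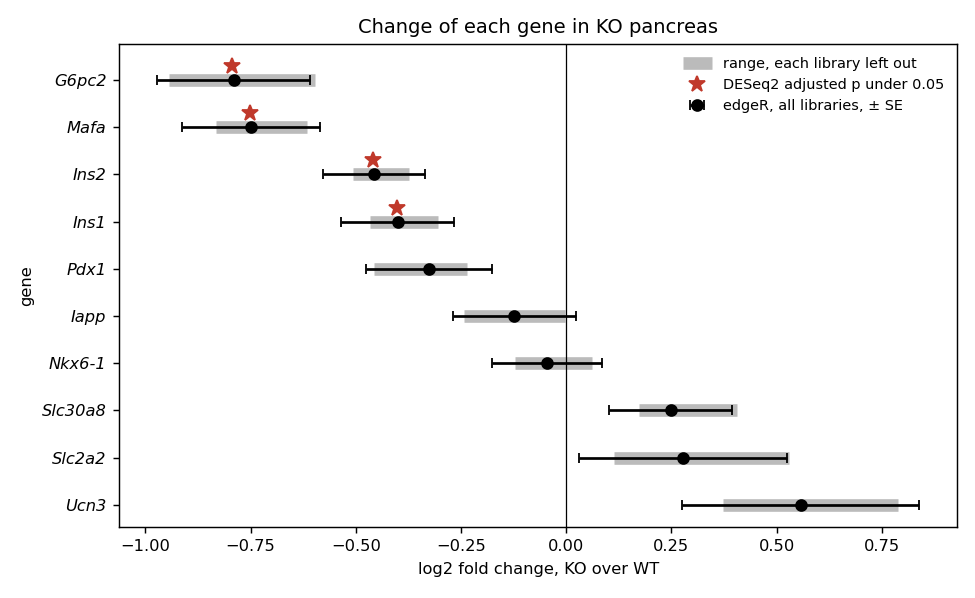
Log2 fold change of each gene, KO over WT. Dots and whiskers give edgeR's estimate and SE from all 6 libraries, grey bars the range when each library is left out in turn, and stars the 4 genes that DESeq2 called. The grey bars of Ins1, Ins2, Mafa, G6pc2, Pdx1 and, barely, Iapp stay below 0, those of Slc30a8, Slc2a2 and Ucn3 stay above 0, and that of Nkx6-1 crosses it.

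Within a library, ratios of reads between these genes do not depend on scaling, and 20 such ratios were compared. Because Iapp and the insulin genes come largely from the same cells, a ratio to either asks whether a gene moved apart from them. In whole pancreas, reads of a gene from other cells enter its ratio as well, and their part was not tested. Ins2 per read of Iapp was 6.27, 4.30 and 5.29 in KO and 6.64, 6.33 and 6.65 in WT. All KO values were lower, but KO 1 nearly reached the WT range. Ins1 per read of Iapp was 5.25, 3.08 and 3.996 in KO and 4.88, 4.76 and 4.90 in WT, and KO 1 was here the highest library. Mafa reads were 3.34, 2.45 and 2.03% of Iapp reads in KO and 3.796, 3.90 and 4.10% in WT, a log2 difference of -0.62. G6pc2 reads were 12.8, 5.40 and 9.47% of Iapp reads in KO against 14.5, 12.4 and 15.5% in WT, with an overlap between KO 1 and WT 2.

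Slc30a8 stood higher in KO on that scale. Its reads were 15.7, 14.3 and 15.3% of Iapp reads in KO and 11.5, 12.2 and 10.9% in WT, a log2 difference of 0.39 that stayed between 0.35 and 0.43 in the 10 settings run. Ucn3 reads were 1.28, 1.03 and 0.622% of Iapp reads in KO and 0.571, 0.609 and 0.609% in WT. Relative to Iapp, 2 of 9 genes (Ins2 and Mafa) had all KO values below all WT values and 2 (Slc30a8 and Ucn3) had all above. Across all tested genes set against Iapp, 1.34% had all below and 7.71% all above. With TPM or the authors' table in place of counts, Ins2 and Ucn3 no longer separated. The 4 separated ratios each had an exact permutation p of 0.1, two-sided, the smallest possible, and 0.25 after Benjamini-Hochberg adjustment over the 20 ratios. Without KO 1, 5 of the 9 ratios to Iapp had all KO values below all WT values, where 11.5% of all genes did.

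Relative to the sum of Ins1 and Ins2, G6pc2 was the 1 gene of 8 with all KO values below WT, and Slc30a8 and Ucn3 had all above. Across all tested genes set against insulin, 0.949% had all below and 52% all above, so the 2 higher ratios do not stand out from other genes. Without KO 2, or without WT 1, 2 genes (Mafa and G6pc2) had all KO values below WT, where 2.02% of genes did without KO 2 and 1.36% without WT 1. G6pc2 reads were 1.11, 0.732 and 1.02% of insulin reads in KO and 1.26, 1.12 and 1.34% in WT (log2 difference -0.40), so that KO 1 and WT 2 were almost level, and without KO 2 the log2 difference was -0.22. Slc30a8 reads were 1.37, 1.93 and 1.65% in KO and 0.9995, 1.10 and 0.947% in WT, a log2 difference of 0.69. Ucn3 reads were 0.111, 0.140 and 0.0670% of insulin reads in KO against 0.0496, 0.0550 and 0.0528% in WT, a log2 difference of 0.95. Each of these had an exact permutation p of 0.1 and an adjusted p of 0.25. Mafa per insulin read was 0.280 ± 0.0569% in KO and 0.346 ± 0.0140% in WT, and KO 2 overlapped the WT range (SD, n = 3 each, exact permutation p = 0.2, two-sided). Pdx1 and Nkx6-1 overlapped as well, with log2 differences of 0.10 and 0.38, that of Pdx1 lying between 0.01 and 0.22 with each library left out.

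**Figure D4:**
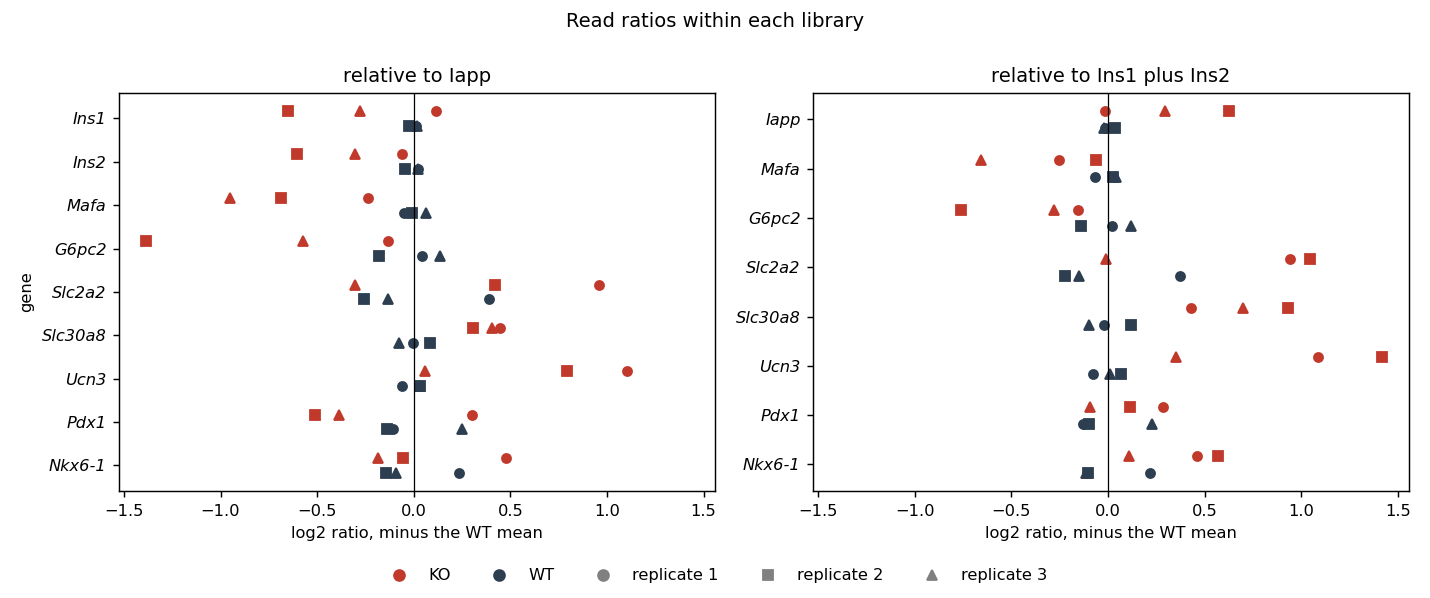
Log2 ratio of each gene's reads to Iapp reads (left) and to the summed Ins1 and Ins2 reads (right), minus the WT mean of that ratio, with 1 symbol per library. The KO libraries of Slc30a8 and Ucn3 lie right of all WT libraries in both panels. Those of Mafa and Ins2 lie left in the ratio to Iapp, and those of G6pc2 in the ratio to insulin. Relative to insulin, 52% of all tested genes had all KO values above all WT values.

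Summed insulin was also set against other islet genes. The sum of 10 hormone granule genes expressed by all endocrine cells, beta cells included, was 1684, 2060 and 1934 CPM in KO, with 1654, 2148 and 1804 CPM in WT. Per read of that sum there were 2.41, 1.76 and 2.08 insulin reads in KO against 2.95, 2.75 and 2.79 in WT (log2 difference -0.45, exact permutation p = 0.1, two-sided, adjusted p = 0.25 over the 20 ratios). The groups did not overlap. Gcg, the glucagon gene of alpha cells, had 1441, 1840 and 1005 CPM in KO and 1101, 1701 and 1398 CPM in WT. Insulin reads per Gcg read were 2.82, 1.97 and 4.004 in KO and 4.43, 3.47 and 3.61 in WT, which overlapped, KO 3 being low in Gcg (exact permutation p = 0.3, two-sided).

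Lists of further beta cell and islet genes were read in the same fit, and some genes stand in more than 1 list. None of their members passed an adjusted p of 0.05 in edgeR, in either direction. Of 18 genes of glucose sensing and excitability, 13 were higher and 5 lower in KO (median log2 fold change 0.11). Cacna1d, a calcium channel subunit, had 46.6 ± 1.84 CPM in KO, against 38.6 ± 1.11 CPM in WT, and Glp1r, the GLP-1 receptor, had 26.9 ± 6.31 CPM in KO, against 36.97 ± 2.67 CPM in WT (SD, n = 3 each). These are the members with the smallest p, as for each list that follows.

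Of 17 genes of prohormone processing and the granule, 10 were lower and 7 higher (median -0.18). Pcsk1, the protease that makes the first cut in proinsulin, had 56.5, 44.3 and 53.6 CPM in KO and 59.6, 70.6 and 65.8 CPM in WT, all KO libraries being lower. Ptprn, which encodes the granule protein IA-2, had 24.04 ± 2.99 CPM in KO, against 30.4 ± 4.86 CPM in WT. In all, 4 of the 17 had every KO library below every WT library and 0 had every one above, beside the 10.3 and 9.07% of all genes. Other lists differed. Of the 18 glucose sensing genes, 1 was all below and 3 all above, and of 8 tested progenitor genes 0 and 2. The counts were 1 and 0 of 17 islet transcription factors, 2 and 2 of 14 repressed genes, and 2 and 1 of 14 genes of other islet cells.

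Of 17 tested transcription factors of the islet, 9 were higher and 8 lower (median 0.08). Rfx6, needed for endocrine cell formation, had 20.7, 38.1 and 18.5 CPM in KO and 19.9, 16.2 and 13.2 CPM in WT, so its difference came mostly from KO 2. Insm1, a zinc finger factor of endocrine cells, had 13.1 ± 1.28 CPM in KO, against 15.5 ± 0.706 CPM in WT. Of 14 tested genes that mature beta cells repress, 9 were lower and 5 higher (median -0.10). Ldha, a lactate dehydrogenase gene that mature beta cells keep low, had 93.3, 112 and 112 CPM in KO and 129, 136 and 155 CPM in WT, with an edgeR adjusted p of 0.234 and a DESeq2 adjusted p of 0.0442. Ldha is expressed by most cell types of the pancreas. Oat, an ornithine aminotransferase gene, had 66.4 ± 6.79 CPM in KO, against 77.2 ± 1.41 CPM in WT.

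Of 14 genes of alpha, delta, PP and epsilon cells, 8 were higher and 6 lower (median 0.05). Slc7a2, a transporter of cationic amino acids, had 92.2, 137 and 109 CPM in KO and 76.2, 82.3 and 71.5 CPM in WT (edgeR adjusted p = 0.227, DESeq2 adjusted p = 0.0226). It was the 1 gene of that list that DESeq2 called. Sst, which encodes the delta cell hormone somatostatin, had 111, 82.5 and 129 CPM in KO and 135, 165 and 143 CPM in WT. Of 8 tested endocrine progenitor genes, 6 were higher and 2 lower (median 0.30). Amotl2, a regulator of the Hippo pathway, had 54.7 ± 10.8 CPM in KO, against 40.0 ± 4.02 CPM in WT, and Sox4 had 114 ± 25.7 CPM in KO, against 145 ± 11.5 CPM in WT.

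**Figure D5:**
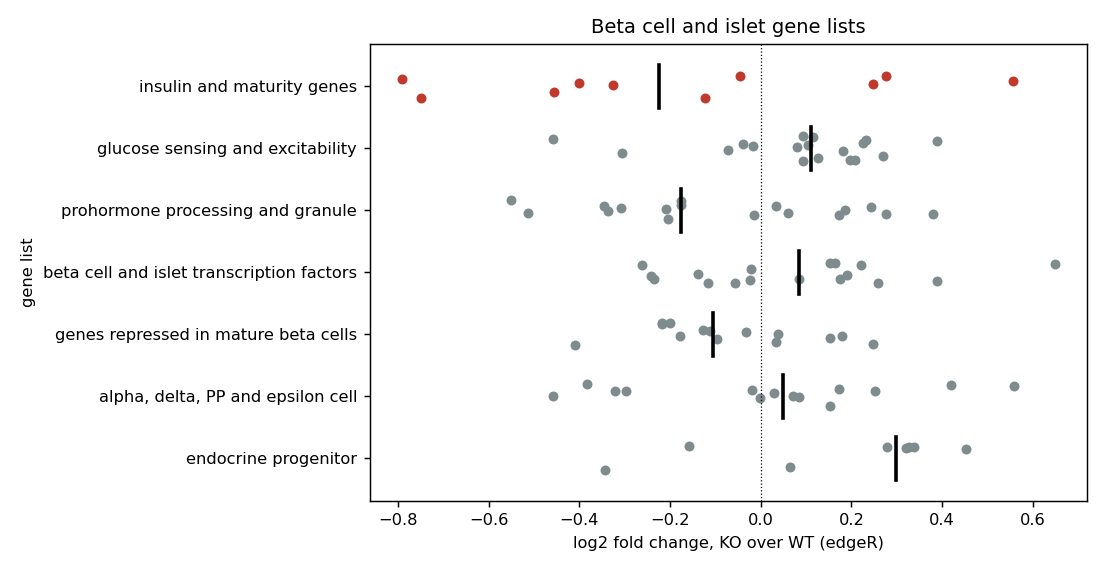
Log2 fold change, KO over WT, of each tested gene in the set of insulin and maturity genes and in 6 further lists, with 1 dot per gene and the median as a black bar (vertical jitter carries no value). The medians lie between -0.22 for the insulin and maturity genes and 0.30 for the endocrine progenitor genes.

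The profile of summed insulin over the 6 libraries was compared with those of other genes. Likeness was taken as the root-mean-square difference of log2 CPM after centring each gene on its mean over the 6 libraries, among 9752 genes outside the set of 10 with a mean of at least 10 CPM. Ins1 and Ins2, which make up the sum, differed from it by 0.0403 and 0.0314. Of the genes outside the set, Exosc8, a subunit of the RNA exosome, was nearest at 0.0567, followed by Sesn3 (0.0569), Sdk2 (0.0573), Tssc4 (0.0588) and Srsf3 (0.0689), a splicing factor. On the same measure Pdx1 differed by 0.164, Mafa by 0.228, Iapp by 0.239, Nkx6-1 by 0.259 and G6pc2 by 0.276. Slc30a8, Slc2a2 and Ucn3 lay farther away, at 0.376, 0.503 and 0.525. The share of compared genes nearer to insulin was 5.99% for Pdx1, 24.6% for Mafa and 29.6% for Iapp. It was 39.2% for Nkx6-1, 48.1% for G6pc2, 82.65% for Slc30a8, 95.4% for Slc2a2 and 96.2% for Ucn3.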

How the data were processed

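RNA of whole newborn pancreas was prepared with a stranded mRNA kit, per the labels' protocols. Per the submitters' processing notes, bcl2fastq, Salmon 0.13.1 and DESeq2 1.24.0 were used with the build mm10, with no transcript set named in the sources used here. Per library, the deposited Salmon output holds estimated counts per transcript, which are not normalized, with TPM, which the authors' quantifier divides by effective length (bases, another deposited column, used in 1 alternative). A deposited table of the whole series gives 17324 genes as a scaled signal, of whose values 0.566 to 0.791% were whole, used as an alternative only. Of 116248 transcripts, 115995 matched GENCODE M21 (GRCm38), and the rest held 0.0341 to 0.0458% of reads. Counts were summed per gene and rounded (Python 3.11.15, pandas 2.3.3).

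KO and WT were compared by the quasi-likelihood test of edgeR 4.0.16 in R 4.3.3 with TMM and filterByExpr, adjusted by Benjamini-Hochberg over 15805 genes, 3 KO against 3 WT, without covariates. The biological coefficient of variation was 18.4%. Sums and ratios were tested on a log2 scale by exact permutation over libraries, two-sided. No source used here says whether counting used strand, so antisense overlaps cannot be separated. The tests were checked on simulated data. Alternatives were DESeq2 1.42.0, limma-voom (limma 3.58.1), other scalings and filters, a length offset, limma on log2(value + 1) of the authors' table, TPM ratios, and leaving out libraries. Leaving out libraries under DESeq2 was chosen after seeing the data.

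Genes and lists were chosen with earlier results of these data known. Beside the 10 genes, the named genes are the 2 with the smallest p of each list, since edgeR called none (DESeq2 called Ldha and Slc7a2), and the 5 nearest to insulin. Ero1b was matched by its synonym Ero1lb. Of the 15 genes on the list of repressed genes, 1 was not tested, as were 1 of 18 transcription factors and 2 of 10 progenitor genes.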

Additional observations from a re-analysis of the deposited data

How the results depend on the processing

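With edgeR and limma, 0 of the 10 genes passed an adjusted p of 0.05 under every scaling, filter, length offset and left-out library run, while DESeq2 called 4. With each library left out, edgeR called 0 (without KO 1, 1.71% of all genes were called lower) and DESeq2 called 1 to 4, the 1 being Ins2 without WT 2 or without WT 3, where it called 0.22 to 3.46% of all genes lower. The log2 fold changes of Ins1 (-0.47 to -0.31), Ins2 (-0.51 to -0.37), Mafa (-0.91 to -0.62) and G6pc2 (-0.94 to -0.60) kept their sign in all 17 settings run, those of DESeq2 with libraries left out not counted. The edgeR and limma adjusted p ranged from 0.053 to 0.669 for G6pc2, the lowest without KO 1. With each library left out, Nkx6-1 ranged from -0.12 to 0.06044 with edgeR and from -0.125 to 0.05674 with DESeq2, above 0 without KO 3 or WT 1 in both (without WT 1, 0.0097 with edgeR and 0.0070 with DESeq2). Its log2 ratio to Iapp ranged from -0.12 to 0.2127, below 0 without KO 1. The log2 ratio of Ins2 to Ins1 ranged from -0.1029 to 0.0092, turning sign without KO 1. The log2 difference of summed insulin stayed between -0.48 and -0.34 in 12 settings, and insulin per Gcg read between -0.69 and -0.07. Relative to Iapp, 2 genes had all KO values below WT, but 1 (Mafa) with TPM, 1 with the authors' table, where Ucn3 also lost its separation, and 2 to 5 with each library left out, the 5 without KO 1. Relative to insulin the count was 1, 2 without both WT 1 and KO 2, and 1 to 2 with each library left out. The cause of these changes was not tested. No paired analysis was possible because the labels give no replicate number shared between the groups. With 51 to 100 reads per library, Ucn3 has the largest counting error relative to its level.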

Other observations

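The Ins2 reads came mostly from a pair of 3-exon transcripts with the same coding sequence and slightly different exon ends. The shorter took 73.4 to 74.9% of Ins2 reads in KO and 75.5 to 76.6% in WT, and the longer took 20.7 to 21.5% in KO and 18.7 to 19.8% in WT. The groups did not overlap for either, but a lower share of the shorter leaves more for the longer, so these are not separate results. How often transcript shares separate the groups across all genes was not measured. The pattern was noticed after the values were seen, rests on estimates that divide reads between overlapping transcripts, and was not tested.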
